A study of Mus musculus with 6 samples.

Results

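The barcodes chosen here as immature neurons of the mouse hippocampus were 299 of the 14210 that lay within the limits on quality in 3 hippocampal libraries. They were chosen by measured values: a barcode had 250 to 6000 genes and under 25% mitochondrial unique molecular identifiers (UMIs), at least 1 UMI for at least 3 of the 6 genes *Neurod1*, *Igfbpl1*, *Sox11*, *Dcx*, *Prox1* and *Calb2*, none for *Top2a*, *Mki67* or *Cdk1*, and UMIs for at most 1 of *P2ry12*, *Cx3cr1*, *Cldn5*, *Flt1*, *Aqp4* and *Mog*. What these genes show is therefore a description of the choice, and all genes of the same cells are given without a test.

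The study dissociated brain tissue of female wild-type C57Bl/6J mice with a short enzymatic protocol meant to enrich microglia and vascular cells, and profiled the cells by droplet-based 3′ single-cell RNA sequencing. Hippocampi came from mice aged 5 weeks and cortices from mice aged 3 weeks. For each tissue, cells of 3 mice were pooled into 1 suspension, and the 3 libraries of a tissue were technical replicates of that suspension. No mouse carried an allele or received a treatment that the labels name, so region and age cannot be told apart between the 2 tissues. The standard deviation (SD) printed with a value is the spread over the 3 technical replicates, 95% intervals cover counting error only, and with 1 biological sample per tissue no p-value was computed. The 3 hippocampal libraries held 43963706 to 50024850 UMIs.

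Adult hippocampal neurogenesis takes place in the subgranular zone of the dentate gyrus. There, radial glia-like cells give rise to cycling progenitors marked by Eomes (Tbr2), which leave the cell cycle and pass through a neuroblast stage with doublecortin and a transient calretinin (*Calb2*) stage before they become calbindin-positive granule neurons. Prox1 specifies the granule neuron, Neurod1 drives its differentiation, and Sox11 is a transcription factor of young neurons that controls *Dcx*, which encodes a microtubule-associated protein of migrating and growing neurons.

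The rule found 88, 118 and 93 barcodes in replicates 1, 2 and 3, or 1.83%, 2.44% and 2.03% of the barcodes within limits. Over the 3 libraries the share was 2.10% (exact Clopper-Pearson 95% interval 1.87 to 2.35, SD 0.312, n = 3). A further 82 barcodes met the rule but for at least 1 UMI of *Top2a*, *Mki67* or *Cdk1*, and they are called cycling counterparts. The members were deeply covered, with a median of 9703 UMIs (range 532 to 39143) against medians of 6592 to 6869 UMIs for the other barcodes of the 3 libraries. Of the hippocampal barcodes within limits, 749 (5.27%) carried a barcode sequence that also occurred in another hippocampal library, but only 2 of them were members, and 7 members (2.34%) were called doublets against 3.79% of all barcodes within limits.

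All 6 selection genes were far more abundant in the members than elsewhere. The levels that follow are counts per 1000000 UMIs (CPM), from the UMIs summed over the members of a library. *Sox11* (chr12:27334264-27342574, build GRCm38, minus strand) stood at 3650, 3317 and 3317 CPM in replicates 1, 2 and 3 and was found in 296 members. *Igfbpl1* (chr4:45809468-45826923, minus strand), which encodes an insulin-like growth factor binding protein-like protein of young neurons, stood at 2822, 2552 and 2530 CPM and was found in 273 members. *Neurod1* (chr2:79452521-79456751, minus strand) stood at 967, 958 and 949 CPM and was found in 214 members. The 3 libraries lay close together for each of these genes. *Dcx* (chrX:143855842-143933311, minus strand) stood at 599.9, 562 and 578 CPM and was found in 266 members. *Prox1* (chr1:190118035-190170714, minus strand) stood at 476, 494 and 602 CPM and was found in 257 members. *Calb2* (chr8:110137502-110168210, minus strand) stood at 640.3, 602 and 787 CPM and was found in 186 members, the fewest of the 6 genes.

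The label was checked against markers the rule had not used. *Eomes*, the intermediate progenitor factor, stood at 213, 216 and 261 CPM, *Neurod2*, a neuronal transcription factor of the glutamatergic lineage, at 118, 117 and 98.2 CPM, *Tubb3*, a neuronal tubulin, at 1227, 1277 and 1210 CPM, and *Stmn2*, a growth cone protein, at 936, 822 and 885 CPM. After each barcode had been thinned to 1000 UMIs, which kept 295 members, *Tubb3* was found in 62.0% of members and in 0.293% of 6495 microglia barcodes, and *Stmn2* in 47.8% and 0.262%. *Eomes* was found in 14.6% and 0.0770%, and *Neurod2* in 10.2% and 0.0462%, so these 4 genes lay above the share that microglia, which should lack them, carried. The microglia set was defined by at least 3 of *P2ry12*, *Cx3cr1*, *C1qa*, *Tmem119* and *Csf1r*, with a median of 6704 UMIs before thinning.

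**Figure D1:**
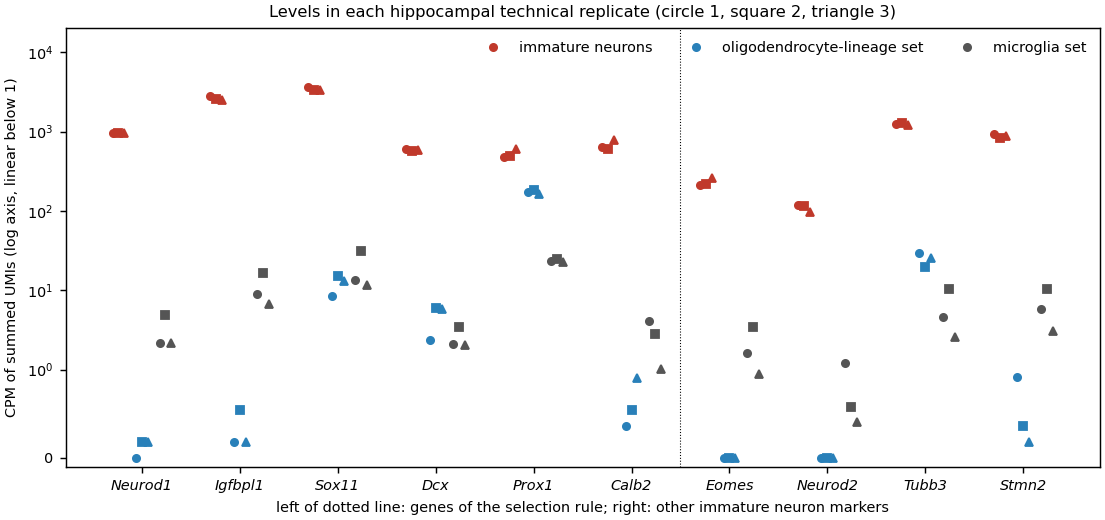
CPM of summed UMIs on a log axis (linear below 1) for the 6 selection genes and 4 other markers of immature neurons, with 1 point per technical replicate, in the members (red), in 822 barcodes with at least 3 of 6 oligodendrocyte-lineage genes (blue) and in 6532 microglia barcodes (grey). In each gene the 3 red points lie above all others; *Prox1* is the gene with the smallest gap, at 174 CPM in the oligodendrocyte-lineage set against 521 CPM in the members.

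Over all genes, the contrast of members with the other hippocampal barcodes restates the choice and is given for orientation only. Of 15553 genes with enough UMIs, 1239 (7.97%) were at least 2-fold higher in the members in every technical replicate and 1930 (12.4%) at least 2-fold lower, with 5 CPM added to both levels. Besides the selection genes, the 15 largest ratios belonged to *Tubb3*, *Tac2*, *Elavl2*, *Dlx6os1*, *Crmp1*, *Bhlhe22*, *Prdm8*, *Stmn2*, *Islr2* and *Dpysl3*. All 10 of the listed neuronal RNA-binding protein genes, 16 of 20 microtubule and growth cone genes, 11 of 14 granule lineage transcription factors and 9 of 10 ion channel genes were higher in the members. None of the others on these lists was lower but for the granule lineage factors *Mef2c* (log2 ratio -3.41) and *Lef1* (-1.56). Of the 10 mature granule neuron genes, 7 had enough UMIs and none of these was past 2-fold in every replicate: *Calb1*, the calbindin gene, differed by a log2 ratio of 0.80 and *C1ql2*, a synaptic organizer of mossy fibers, by 1.47. Of 11 immediate early genes, 10 had enough UMIs, and 5 were lower in the members (*Fos*, *Fosb*, *Jun*, *Junb* and *Atf3*) and none was higher.

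What else the members held differed with the number of selection genes found in them. Of the members, 147 had all 6 genes, 55 had 5, 44 had 4 and 53 had 3. The 53 members just inside the threshold had 482 CPM of *Igfbpl1*, 218.7 CPM of *Dcx* and 15.6 CPM of *Neurod1*, together with 898 CPM of *Olig1*, an oligodendrocyte-lineage gene. The 136 barcodes just outside, with 2 of the 6 genes, had 9.71 CPM of *Igfbpl1*, 28.5 CPM of *Dcx* and 7.42 CPM of *Neurod1*, with 880.5 CPM of *Olig1*. In the 147 members with all 6 genes, *Olig1* stood at 3.42 CPM. The members with 4 genes were marked by *Dlx1* (391 CPM) and *Gad2* (288 CPM), genes of GABAergic neurons, which stood at 5.47 and 2.05 CPM in the members with 6.

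Most members thus carried genes of the glutamatergic, granule-forming lineage, and a smaller number carried those of GABAergic neurons, with almost no overlap. Of the 299 members, 222 (74.2%, exact interval 68.9 to 79.1) had UMIs for at least 2 of the 7 genes *Eomes*, *Neurod1*, *Neurod2*, *Neurod6*, *Emx1*, *Bhlhe22* and *Tbr1* and fewer than 2 of the 7 genes *Dlx1*, *Dlx2*, *Dlx5*, *Dlx6*, *Gad1*, *Gad2* and *Slc32a1*. The reverse held for 42 members (14.05%), 1 member had at least 2 of both, and 34 (11.4%) had fewer than 2 of either. *Neurod1* is also a selection gene, so the first count is raised by the rule. By a list of 12 GABAergic markers, 44 members (14.7%) had at least 3, in 10, 19 and 15 members of replicates 1, 2 and 3, and by a list of 12 oligodendrocyte precursor cell (OPC) markers 18 members (6.02%) had at least 3, in 3, 11 and 4 members. Replicate 2 held most of the OPC-marked members.

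The 44 GABAergic-marked members met the rule mainly without *Neurod1*. They had 1875 CPM of *Igfbpl1*, 3532 CPM of *Sox11* and 908 CPM of *Dcx*, and *Neurod1* was found in 1 of them. *Gad2*, which encodes a GABA-synthesizing enzyme, stood at 527, 512 and 419 CPM in replicates 1, 2 and 3. *Dlx1*, a homeobox factor of GABAergic neurons, stood at 630.1, 719.8 and 781 CPM. *Sp8*, a zinc finger factor of interneurons born in the caudal and lateral ganglionic eminences, stood at 355, 519.8 and 371 CPM, while *Lhx6*, the factor of medial ganglionic eminence interneurons, had no UMI in any member, which allows up to 9.45 CPM in these 44 (3 counts over the group). *Igfbpl1*, *Sox11* and *Dcx* are genes of the rule, and *Gad2*, *Dlx1* and *Sp8* are among the 12 markers that chose the subset, so their high levels are fixed by the choice.

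Against the 235 members that had fewer than 3 OPC, GABAergic or Cajal-Retzius markers, called unmarked here, the GABAergic-marked members had 89 genes at least 2-fold higher in every replicate (1.27% of 6982) and 371 at least 2-fold lower (5.31%). Since the subset was picked by its GABAergic genes, the contrast is a description. *Nrxn3*, a presynaptic adhesion gene, stood at 1123, 1376 and 1305 CPM in the GABAergic-marked members and at 1.42, 3.34 and 2.95 CPM in the unmarked members. *Meis2*, a homeobox factor, stood at 2532, 2423 and 2876 CPM against 14.2, 39.0 and 32.5 CPM. Both genes were separated in all libraries, with log2 ratios of 7.40 and 6.24. In the other direction, *Bhlhe22*, a transcription factor of excitatory neurons, had no UMI in the GABAergic-marked members and 461 CPM in the unmarked ones, at least 48.8-fold lower when 3 counts over the group are taken as the floor. *Tac2*, the neurokinin B gene, was at least 31.0-fold lower, *Emx1* at least 17.4-fold, *Neurod2* at least 15.0-fold and *Neurod6* at least 9.01-fold, and none of these 4 genes had a UMI in the GABAergic-marked members. *Id2*, an inhibitor of basic helix-loop-helix factors, was found with 3 UMIs in the GABAergic-marked members and 1788 in the unmarked ones.

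The 18 OPC-marked members went against the label. None had a UMI of *Igfbpl1*, *Eomes* or *Neurod2*, 1 had *Neurod1*, and they met the rule through low counts of *Sox11* (35 UMIs in 17 cells), *Dcx* (21 UMIs in 14 cells), *Prox1* (23 UMIs in 13 cells) and *Calb2* (18 UMIs in 13 cells). *Olig1*, a basic helix-loop-helix factor of the oligodendrocyte lineage, stood at 2104 CPM and was found in 17 of the 18. *Gpr17*, a receptor of committed precursors, stood at 1007 CPM and *Pdgfra*, the growth factor receptor of OPCs, at 712 CPM. In the unmarked members *Olig1* stood at 4.83 CPM, *Gpr17* at 0.878 CPM, and *Pdgfra* had no UMI. By their leading genes these 18 barcodes were of the oligodendrocyte lineage and are not called neurons below.

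Markers of still other cells were present at low levels. Of the 8 microglia markers, at least 3 were found in 85 members (28.4%), their summed level was 1459, 1685 and 1464 CPM against 42912 CPM in the other barcodes, and none was at 0. *Cst3*, which is expressed by several brain cell types, was the most abundant with 4025 UMIs, whereas *C1qa* stood at 24.5 CPM against 3474 CPM in the other barcodes. Of the 7 astrocyte markers, at least 3 were found in 77 members, with a summed level of 1005, 1243 and 1063 CPM, led by *Slc1a2*. Of the 6 myelinating oligodendrocyte markers, at least 3 were found in 43 members, with a summed level of 4684, 1644 and 1983 CPM. Choroid plexus and ependymal markers reached 3 in 3 members (summed level 268 CPM, led by *Ttr*), Cajal-Retzius markers in 2 (59.4 CPM, led by *Ndnf*), and endothelial (21.7 CPM, led by *Itm2a*) and mural markers (92.8 CPM, led by *Vtn*) in 1 each. The contrast of late with early members is given below also without the barcodes that had at least 3 markers of any of these classes.

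To describe maturation, each member was given a stage score, the log2 ratio of the summed CPM of 8 late genes (*Snap25*, *Syt1*, *Syp*, *Rbfox3*, *Meg3*, *Camk2b*, *Fxyd7* and *Slc17a7*) to that of 10 early genes (*Eomes*, *Igfbpl1*, *Neurod1*, *Neurod4*, *Insm1*, *Mfap4*, *Sox4*, *Sox11*, *Hes6* and *Btg2*), with 50 CPM added to both. The members were ranked by the score and cut into an early, a middle and a late group of 100, 100 and 99 members, with medians of -5.27, -4.05 and -1.995. These groups are ranges and not types: 39 members lay within 0.25 of the lower cut and 43 within 0.25 of the upper one. Because the score is a ratio, a barcode that lacks both kinds of gene scores near 0 and falls in the late group. The late group held 16 of the 18 OPC-marked members and 31 of the 44 GABAergic-marked members, the early group 0 and 10. Of the 10 early genes, 8 had a lower pooled level in the GABAergic-marked than in the unmarked members, among them *Neurod1* (3.15 against 1217 CPM), *Eomes* (25.2 against 287 CPM) and *Mfap4* (3.15 against 154 CPM), while *Sox4* (3674 against 2888 CPM) and *Insm1* (208 against 120 CPM) were higher. Of the late genes they had 4528 CPM of *Meg3* against 49.2 CPM, whereas *Rbfox3* (18.9 against 258 CPM) and *Camk2b* (18.9 against 85.2 CPM) were lower in every replicate, and *Meg3* was the only one of the 8 late genes with a higher pooled level in them.

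**Figure D2:**
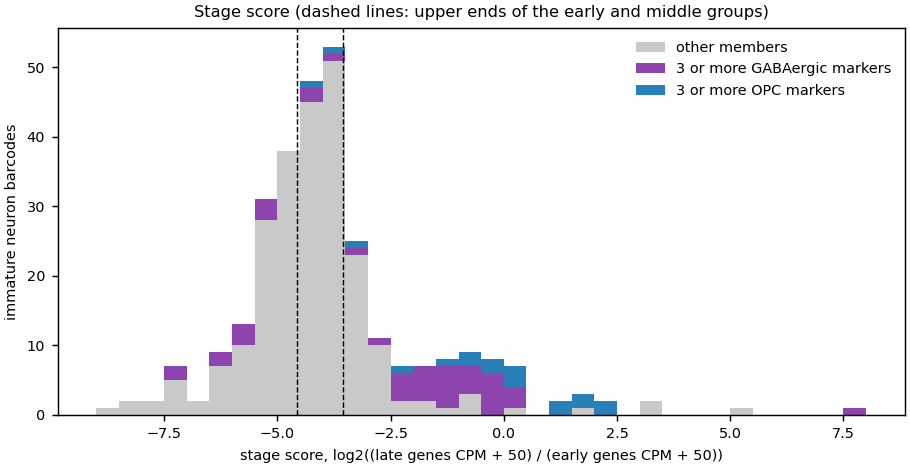
Number of the 299 members (vertical axis) by stage score in bins of 0.5 log2 units (horizontal axis), with GABAergic-marked members in purple, OPC-marked members in blue and the other members in grey. The grey members form 1 peak around the middle group, between the dashed cuts, and the marked members make up most of the long right tail.

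Over all 299 members, 196 genes (3.21% of 6097) were at least 2-fold higher in the late than in the early group in every replicate, and 50 (0.82%) at least 2-fold lower, leaving out selection and score genes. The higher count fell without replicate 2 and the lower count rose without replicate 3 (values in the last section). With a replicate left out, a gene had to be past 2-fold in only 2 replicates. Genes of the oligodendrocyte lineage led the genes that were higher. *Olig1* stood at 0, 5.61 and 0 CPM in the early group and at 390.3, 1023 and 268 CPM in the late group of replicates 1, 2 and 3. *Olig2*, *Gpr17*, *Lhfpl3*, *Cspg5*, *Tnr* and *Cntn1*, which OPCs also express, were among the 15 genes with the largest ratios, and 8 of the 12 OPC markers were higher. Among the genes lower in the late group were the lineage factors *Emx1* (191, 213 and 157 CPM early, 54.5, 31.2 and 41.6 CPM late) and *Neurod6*, the LIM homeobox gene *Lhx2* (617, 794 and 612 CPM early, 163, 135 and 144 CPM late), *Mdk* and *Cdk6*. For *Emx1* and *Lhx2* every late value lay below every early one. *Neurog2*, a proneural factor, was also past 2-fold (log2 ratio -2.64), but its direction turned without the marked members (0.48), with 2 stage groups (0.10) and without replicate 2 (0.44). The marked members move with this contrast: without them the log2 ratio of *Emx1* was -0.72, that of *Lhx2* -1.01, and those of *Olig2* and *Gpr17*, 5.25 and 5.20 over all members, were both -0.33.

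The 235 unmarked members (74, 87 and 74 per replicate) were therefore cut by the score into early, middle and late groups of their own, of 79, 78 and 78 members. In their late group 42 genes (0.846% of 4962) were at least 2-fold higher in every replicate than in their early group, and 12 (0.242%) at least 2-fold lower. When the score was computed on barcodes thinned to 1000 UMIs, 29 genes were higher and none lower, and with 2 stage groups 55 were higher and 3 lower. The count of lower genes was larger with a score without selection genes (values in the last section). It was also larger as each replicate was left out, when a gene had to be past 2-fold in only 2 replicates. With the thinned score the log2 ratio of *Ccnd2* was -0.70, that of *Elavl4* -0.48, that of *Hmgn2* -0.37 and that of *Smc4* -0.67, against -2.09, -1.75, -1.71 and -1.52, so none of the lower genes described in what follows was past 2-fold in every replicate with that score. The late group was also shallower, with a median of 8798.5 UMIs against 10825 in the early group, and the part of depth in these counts was not tested. The score genes moved as the score requires: *Eomes* went from 429.9 over 277 to 131 CPM, *Neurod4* from 68.3 to 13.4 CPM and *Insm1* from 159 to 53.6 CPM, while *Snap25* went from 62.0 to 190.4 CPM, *Syp* from 43.0 to 153 CPM and *Camk2b* from 11.4 to 198 CPM. The 78 unmarked cycling counterparts (26, 28 and 24 per replicate) are set beside the stage groups in what follows. The counterparts were picked by UMIs of *Top2a*, *Mki67* or *Cdk1*, so their higher levels of other cell cycle genes are tied to that choice. All 82 counterparts were also deeper, with a median of 15708.5 UMIs against 9703 in the 299 members.

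Of the cell cycle genes, *Ccnd2* was lower in the late than in the early group. *Ccnd2*, a D-type cyclin of neuronal progenitors, stood at 1360.3, 1612 and 1705 CPM in the cycling counterparts and at 835, 531 and 1091 CPM in the early group. It then stood at 282, 447 and 413 CPM in the middle group and at 305, 95.2 and 196 CPM in the late group, so replicate 1 was not lower in the late than in the middle group. Every late value lay below every early one, and the log2 ratio of late to early was -2.09 (counting interval -2.41 to -1.84). *Hmgn2*, a nucleosome-binding protein, went from 1133 to 342 CPM and *Smc4*, a condensin subunit, from 73.3 to 22.3 CPM. *Hmgb2*, a chromatin protein of dividing cells, stood at 3474 CPM in the cycling counterparts, 268 CPM in the early group and 109 CPM in the late group, and was not 2-fold lower in every replicate. Of the 14 genes of cell cycle exit and replication, 7 had enough UMIs, 1 (*Ccnd2*) was past 2-fold and the median log2 ratio was -0.50, against -0.00221 over all 4962 genes. *Mcm2* (12.6 to 8.93 CPM, 102 CPM in the cycling counterparts) and *Ccnb1* (2.53 to 0 CPM, 217 CPM) were near the floor in both stage groups.

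Progenitor transcription factors were present at low levels throughout. *Sox2*, a stem cell factor, stood at 157, 152 and 141 CPM in the 3 groups and at 387 CPM in the cycling counterparts. *Neurog2* stood at 75.9, 25.1 and 144 CPM in the early group of replicates 1, 2 and 3 and at 405, 3.97 and 34.6 CPM in the late group, so 1 library set its late level. Of the 12 progenitor genes, 8 had enough UMIs and none was past 2-fold in every replicate, with a median log2 ratio of 0.17.

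Transcription factors of the granule lineage differed in their course. *Bhlhe22* stood at 325, 352 and 216 CPM in the early group of replicates 1, 2 and 3, at 383, 382 and 600.0 CPM in the middle group and at 729, 687 and 658 CPM in the late group, with a log2 ratio of late to early of 1.17. *Neurod2* went from 105, 108 and 76.4 CPM to 181, 246 and 169 CPM, a log2 ratio of 1.01, and the selection gene *Prox1* from 459, 395 and 556 CPM to 617, 901 and 900.5 CPM. For each of these 3 genes all late values lay above all early ones, but none was past 2-fold in every replicate. *Emx1* went the other way, from 246, 240.4 and 169.7 CPM to 168, 131 and 112 CPM, and *Bcl11a*, a zinc finger factor of young neurons, from 359 to 235 CPM. *Zbtb20*, a factor of hippocampal neuron identity, stood at 5461, 5748 and 6332 CPM and *Nfib*, a nuclear factor I gene, at 4631, 4909.6 and 4391 CPM in the 3 groups. Of the 14 factors, 11 had enough UMIs, none was past 2-fold and the median log2 ratio was -0.08.

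The calretinin gene was found in all groups and the calbindin gene only in the late group. *Calb2* stood at 669, 517 and 535 CPM in the early group, at 894, 556 and 1150.5 CPM in the middle group and at 729, 1262 and 1324 CPM in the late group, against 186 CPM in the cycling counterparts. *Calb1* had no UMI in the cycling counterparts or in the early and middle groups, which allows up to 3.79 CPM in the early group, and stood at 37.4, 15.9 and 38.5 CPM in the late group. *C1ql2* had no UMI in the same groups and stood at 0, 3.97 and 65.4 CPM in the late group, so replicate 3 held nearly all of it. None of the 10 mature granule neuron genes had enough UMIs for a ratio, and their summed level was 36.7, 34.4 and 126 CPM in the early, middle and late groups.

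The cytoskeleton of growing neurites was present in all groups. *Tubb3* stood at 374 CPM in the cycling counterparts and at 1529, 1263 and 887 CPM in the 3 groups, and *Stmn2* at 109 CPM and at 749.7, 854 and 655 CPM, so the largest step for both lay between cycling and early cells, which the rule had set apart by cell cycle genes. *Tuba1a*, the alpha-tubulin of young neurons, went from 7948 to 5257 CPM and *Basp1*, a growth cone membrane protein, from 1475 to 1729 CPM. All 20 microtubule and growth cone genes had enough UMIs and none was past 2-fold, with a median log2 ratio of -0.22. Their summed level was 29533, 28758 and 25725 CPM in the early group of the 3 replicates and 20421, 22225 and 21847 CPM in the late group.

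Among the neuronal RNA-binding proteins, *Elavl4* (HuD), which stabilizes messages of differentiating neurons, was lower in the late group. It stood at 539, 549 and 713 CPM early, at 304, 450.04 and 407 CPM in the middle and at 218, 111 and 204 CPM late, a log2 ratio of -1.75 (interval -2.09 to -1.49). *Elavl2* went from 737 to 439 CPM, and *Elavl3* stood at 398 and 391 CPM. *Celf4*, a regulator of synaptic messages, stood at 119, 86.1 and 127 CPM early and at 199, 262 and 285 CPM late, and *Rbfox1*, a splicing regulator, at 27.8 and 115 CPM. The 10 genes of this list all had enough UMIs and 1 was past 2-fold.

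Of the genes of axon guidance and adhesion, *Plxna2* was higher in the late group. *Plxna2*, a semaphorin receptor with a known part in granule cell positioning and mossy fiber growth, stood at 119, 129 and 127 CPM early, at 267, 185 and 193 CPM in the middle and at 249, 365 and 296 CPM late, a log2 ratio of 1.28 (interval 0.96 to 1.67). It was the only one of the 14 listed adhesion and guidance genes with enough UMIs that was past 2-fold. *Plxna4*, its relative, went from 72.1 to 174 CPM, a log2 ratio of 1.22, *Ncam1*, the carrier of polysialic acid, from 599 to 836 CPM, and *Cxcr4*, the receptor of Cxcl12, from 92.3 to 84.8 CPM. Outside the list, *Sema5a*, a semaphorin, stood at 25.3, 3.59 and 17.0 CPM early and at 206, 238 and 246 CPM late, with all late values above the early ones, and its log2 ratio went from 3.56 to 0.97 with the thinned score.

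Among the receptors for glutamate and GABA, *Grin2b* was past 2-fold in every replicate. *Grin2b*, the NMDA receptor subunit of immature synapses, stood at 36.2, 82.5 and 67.9 CPM early, at 135, 117 and 88.1 CPM in the middle and at 187, 222 and 300.2 CPM late, a log2 ratio of 1.89 (interval 1.51 to 2.47). *Gria2*, an AMPA receptor subunit, went from 969, 1098 and 823 CPM to 2069.5, 1556 and 1889.5 CPM, a log2 ratio of 0.89. *Nrgn*, a postsynaptic calmodulin-binding protein, stood at 31.2, 23.8 and 231 CPM late against 10.8, 0 and 0 CPM early, so 1 library held most of it. Of the 11 glutamate receptor and postsynaptic genes, 5 had enough UMIs, 2 (*Grin2b* and *Nrgn*) were past 2-fold and the median log2 ratio was 1.14. *Gabra2*, a GABA receptor subunit, went from 55.6 to 95.2 CPM, and the 5 GABA and chloride genes with enough UMIs all had ratios above 0, with none past 2-fold. *Slc12a2*, the chloride importer of immature neurons, stood at 44.3, 36.8 and 71.4 CPM in the 3 groups, while *Slc12a5*, the exporter of mature neurons, had no UMI in the early and middle groups and 5.95 CPM in the late group.

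Presynaptic genes that the score did not use were not past 2-fold, with 9 of 11 above the UMI limit and a median log2 ratio of 0.16. *Rab3a*, a vesicle GTPase, stood at 340.1, 381 and 379 CPM in the 3 groups and *Vamp2*, the vesicle SNARE, at 116, 118 and 119 CPM. *Cplx2* went from 419.8 to 268 CPM. Of the 10 ion channels, 4 had enough UMIs, none was past 2-fold and the median was 0.30; *Scn8a* went from 39.2 to 66.9 CPM and *Cacna1a* from 73.3 to 84.8 CPM. Of 11 immediate early genes, 6 had enough UMIs, none was past 2-fold and the median was 0.48, and *Fos* stood at 168, 206 and 189 CPM and *Jun* at 228, 324 and 347 CPM.

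Among peptides, hormones and their receptors, *Tac2* was variable within the set. It stood at 224, 222 and 123 CPM early, at 169, 671 and 440.4 CPM in the middle and at 37.4, 230.2 and 304 CPM late, and the groups overlapped. *Cnr1*, the cannabinoid receptor, went from 159, 136 and 144 CPM to 281, 286 and 273 CPM, a log2 ratio of 0.91, and *Igf1r* stood at 101, 118 and 116 CPM. *Ntrk2*, the BDNF receptor, which astrocytes also express, was past 2-fold (54.2, 61.0 and 33.9 CPM early, 162, 167 and 77.0 CPM late), but in the 220 unmarked members of the glutamatergic-lineage class its log2 ratio was 0.26. *Sst* had no UMI in any group, and *Penk* had none in the early and middle groups. Of the 14 genes, 7 had enough UMIs, 1 was past 2-fold and the median was 0.69.

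**Figure D3:**
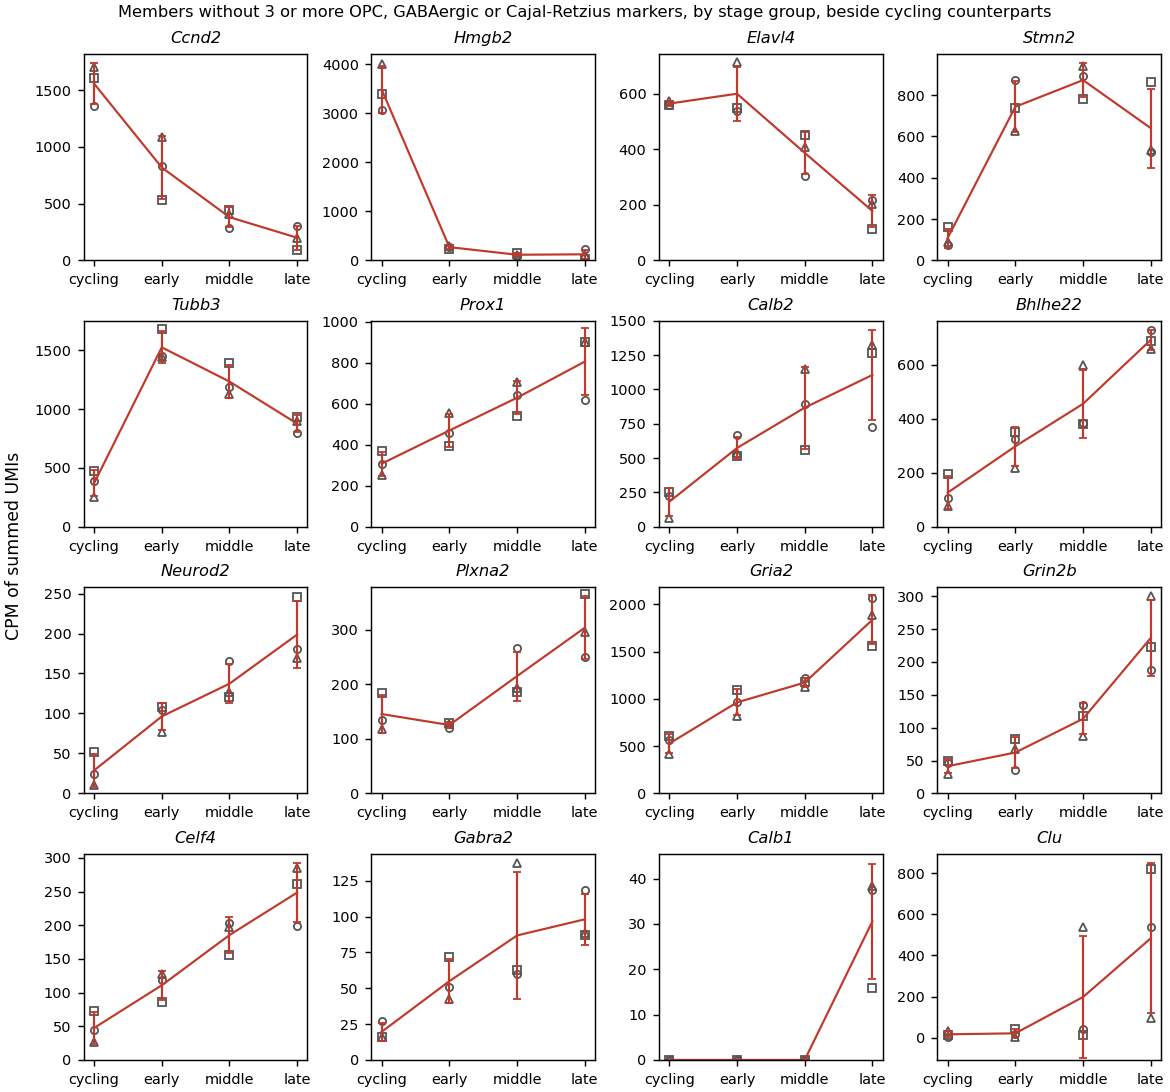
CPM of summed UMIs (vertical axes, 1 panel per gene with its own scale) in the 78 unmarked cycling counterparts and in the early, middle and late groups of 79, 78 and 78 unmarked members. Open symbols are technical replicates (circle 1, square 2, triangle 3) and the red line joins their means ± SD; *Ccnd2* and *Elavl4* are lower and *Bhlhe22*, *Gria2* and *Grin2b* higher in the late than in the early group of each replicate, *Calb1* appears only in the late group, and *Clu*, an astrocyte gene, differs widely between libraries.

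Of the 7 astrocyte markers, 3 (*Clu*, *Gja1* and *Aldoc*) were at least 2-fold higher in the late group of the unmarked members. *Clu* stood at 18.1, 43.1 and 4.24 CPM early and at 536, 818 and 96.2 CPM late, *Apoe* at 224, 427 and 144 CPM and at 2799, 3385 and 743 CPM, and *Gja1*, the gap junction protein of astrocytes, at 6.32 and 98.2 CPM over the libraries. The summed level of the list was 764, 1199 and 1791 CPM in the early, middle and late groups, *Slc1a2* had the most UMIs of them in the late group, and *Aldh1l1* had no UMI in the early group and 1.49 CPM in the late group. Members with at least 3 astrocyte markers numbered 25, 15 and 23 in the 3 groups. Summed mural markers went from 49.3 CPM early to 257 CPM late, and choroid plexus and ependymal markers from 158 to 385 CPM. Microglia markers went from 1011 to 1706 CPM, and endothelial ones from 15.2 to 14.9 CPM. No gene of these lists was past 2-fold in every replicate, and choroid plexus and ependymal markers were lower late in replicate 3. *Rarres2* had the largest log2 ratio of the higher genes (4.65), at 0 CPM early and 231, 167 and 7.70 CPM late. In the 121 members without 3 markers of any other class, a setting added after the data had been seen, the log2 ratios of *Apoe* and *Aldoc* turned to -0.22 each (3.01 and 2.88 over all unmarked members), that of *Clu* was 0.96, and 11 genes were higher in place of 42. The 121 members held 1009536 UMIs against 2277703 in all unmarked members, so fewer genes could reach the UMI limit. *Clu* and *Aldoc* are on the list by which members were left out, so their smaller ratios are in part fixed by that choice. *Apoe* is not on the list but was measured in the same chosen members, so its ratio is not independent of the choice either.

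The 220 unmarked members of the glutamatergic-lineage class, a split chosen after the data had been seen, were grouped by the same score into 74, 73 and 73. They are 220 of the same 235 barcodes, and *Eomes* and *Neurod1*, which help to define the class, are early genes of the score, so the class tends by construction to leave out high scores (of 9 unmarked members with a score above -2 it held 5) and the values are a description, not independent support. In these, *Clu* had a log2 ratio of 1.36 (4.10 over all unmarked members), *Apoe* 0.67 (3.01) and *Gja1* 0.93 (3.19), and none of the 3 was past 2-fold in every replicate. Of the 42 genes that were higher in the late group of the unmarked members, 15 were also past 2-fold here, among them *Grin2b* (61.2 to 257 CPM), *Plxna2* (126 to 337 CPM), *Sema5a* (15.3 to 248 CPM), *Nrgn* (3.83 to 109.6 CPM), *Lingo1*, a leucine-rich repeat membrane protein (39.5 to 113 CPM), *Cntnap5a*, a neurexin-related adhesion gene (34.4 to 127 CPM), *Lrrtm1*, a synaptic organizer (11.5 to 76.2 CPM), *Ina*, a neuronal intermediate filament (29.3 to 108 CPM), *Kitl*, the Kit ligand (29.3 to 109.6 CPM) and *Pik3r1*, a regulatory subunit of phosphatidylinositol kinase (88.0 to 279 CPM). Of the 12 genes that were lower, 7 were also past 2-fold here, among them *Ccnd2* (746 to 198 CPM), *Elavl4* (608 to 183 CPM), *Hmgn2* (1022 to 386 CPM) and *Smc4* (72.7 to 27.0 CPM).

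**Figure D4:**
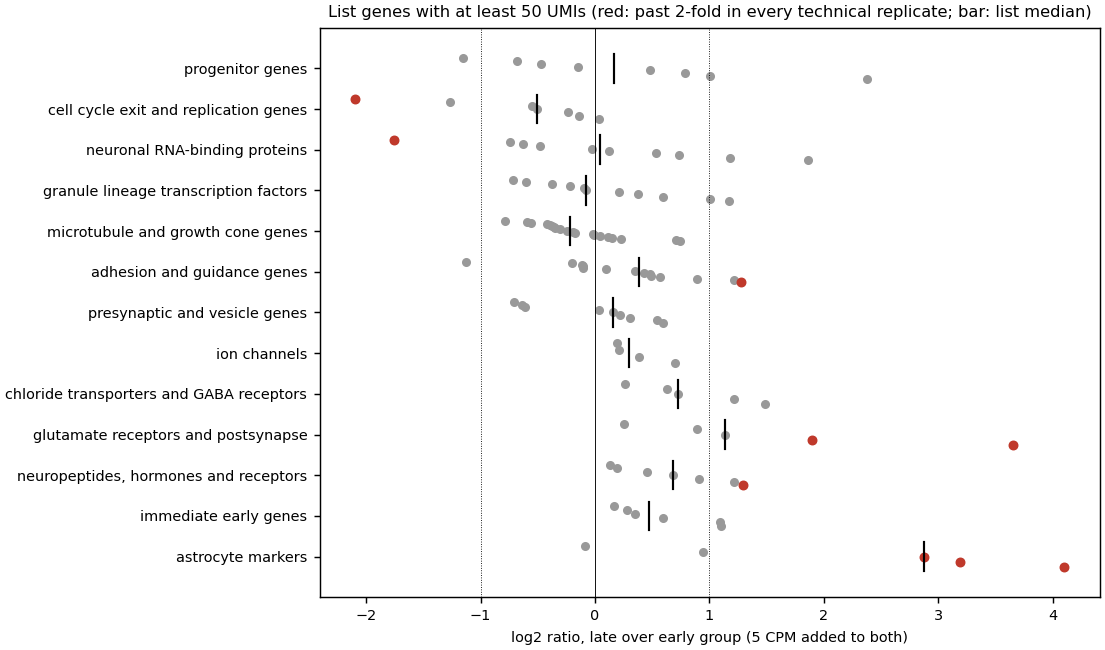
Log2 ratio of late to early level (horizontal axis, 5 CPM added) of each list gene with at least 50 UMIs over both groups of unmarked members, by gene list (rows). Points are genes, red where past 2-fold in the same direction in each technical replicate, and bars are list medians: -0.50 for cell cycle exit and replication genes, -0.22 for microtubule and growth cone genes, 1.14 for glutamate receptors and postsynapse and 2.88 for astrocyte markers.

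The same rule found 50 barcodes in the cortex at 3 weeks, 15, 20 and 15 of the barcodes within limits in the 3 libraries, or 0.375% (exact interval 0.279 to 0.495, SD 0.0534, n = 3). The share in the hippocampus was 5.61 times as large, with the lowest hippocampal library at 1.83% and the highest cortical one at 0.436%, so the libraries did not overlap. The cortical barcodes were shallower, with a median of 5468 UMIs, and the gene lists of the files differed in length, 27998 genes in the hippocampus and 31053 in the cortex. Suspensions were 1 per tissue, so this difference was not tested.

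The 2 tissues differed in what the rule found. Of the 50 cortical members, 40 (80%, exact interval 66.3 to 89.97) had at least 2 of the 7 GABAergic genes and fewer than 2 of the 7 glutamatergic-lineage genes, 8 had the reverse, 2 had neither and none had both. In the hippocampus the corresponding numbers were 42, 222, 34 and 1 of 299. *Gad2* stood at 269, 293 and 372 CPM in the cortical members and at 53.1, 54.9 and 50.8 CPM in the hippocampal ones. *Dlx1* stood at 363, 435 and 480.0 CPM against 63.4, 77.3 and 98.2 CPM, and *Neurod1* at 290.2, 180 and 206 CPM against 967, 958 and 949 CPM. For all 3 genes the libraries of the tissues did not overlap. These levels are pooled over members and go with the mix of classes. In GABAergic-marked members *Gad2* stood at 485 CPM in the hippocampus and 418 CPM in the cortex. *Dlx1* stood at 715 and 568 CPM there, and for both genes the libraries overlapped. In members with fewer GABAergic markers *Neurod1* stood at 1075 and 882 CPM. The GABAergic class was 42 of 14210 hippocampal and 40 of 13320 cortical barcodes within limits. *Eomes* was found in 5 cortical members, with 197, 18.9 and 0 CPM in the 3 libraries, so that the hippocampal libraries (213, 216 and 261 CPM) all lay above them. *Meg3*, a maternally expressed noncoding RNA, stood at 2624, 8126 and 1828 CPM in the 44 hippocampal and at 786, 1004 and 915 CPM in the 40 cortical GABAergic-marked members, with no overlap.

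**Figure D5:**
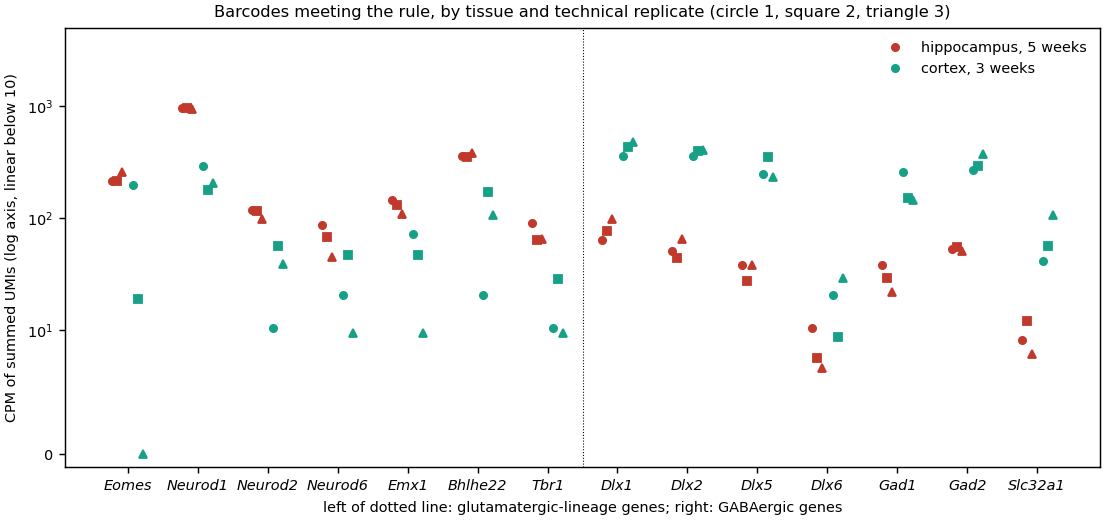
CPM of summed UMIs (log axis, linear below 10) of 7 glutamatergic-lineage and 7 GABAergic genes in the 299 hippocampal members at 5 weeks (red) and the 50 cortical members at 3 weeks (green), 1 point per technical replicate. All red points lie above all green ones for *Eomes*, *Neurod1*, *Neurod2*, *Emx1*, *Bhlhe22* and *Tbr1*, and green points above red ones for *Dlx1*, *Dlx2*, *Dlx5*, *Gad1*, *Gad2* and *Slc32a1*. Levels are pooled over all members of a tissue, and the mix of classes differed between the tissues.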

How the data were processed

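Female C57Bl/6J hippocampi (5 weeks) and cortices (3 weeks) were profiled in 3 technical replicate libraries per tissue, each tissue a single suspension pooled from 3 mice. The authors deposited filtered matrices of whole-number UMI counts per gene and barcode, not normalized, made with Cell Ranger 5.0.1 and the mouse genome mm10 per the labels. The file headers name software version 3.1.0 for the hippocampus and 3.0.1 for the cortex. The deposited matrices held 15336 hippocampal and 17937 cortical barcodes, at least 500 UMIs each, and 14210 and 13320 were within 250 to 6000 genes and under 25% mitochondrial UMIs.

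Members were selected on measured values by the rule in the opening, and the members and gene lists were chosen with earlier results of these data known. UMIs were summed over the barcodes of a set in each library and scaled to 1000000. Log2 ratios had 5 CPM added to both levels, genes needed 50 UMIs in the 2 sets together, and a gene was counted as higher or lower when it was past 2-fold in all 3 technical replicates; no p-value was computed. Printed levels of a set without replicate values are pooled over its libraries. Poisson, Clopper-Pearson and conditional binomial intervals are at 95% and cover counting error only. The procedure that counts past-fold genes was checked on simulated data, which is not a test of the study's groups. Genes named in the text were all selection and excluded genes, list genes past the fold or most abundant in members, the 15 genes with the largest ratios of each contrast, and some singled out after their values were seen, such as those of the glutamatergic-lineage class. Doublets were called with Scrublet in scanpy 1.11.5, with 0.8% expected per 1000 barcodes, and left in. Python 3.11.15, numpy 2.4.6 and scipy 1.17.1 were used. Coordinates came from GENCODE M21, in which all 350 looked-up identifiers matched. Alternatives were the selection threshold, the mitochondrial limit, thinning to 1000 UMIs, a score without selection genes, 2 stage groups, the CPM added, the UMI limit, the members left out (shared barcodes, Scrublet doublets, marked members, members with markers of any other class or outside the glutamatergic-lineage class) and each replicate left out. A few genes of the lists are counted with their lists but are not reported here by name.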

Additional observations from a re-analysis of the deposited data

Results flagged for a closer look

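*Cacna1e*, a voltage-gated calcium channel gene, had a log2 ratio of members to other barcodes of 1.92 in the hippocampus (22.8 against 2.33 CPM), higher in each of the 3 libraries, and went the opposite way in each cortical library, where the 50 members had no UMI against 7.48 CPM in the other barcodes. A count of 0 in the cortical members allows up to 9.86 CPM, so a lower level there was not detectable at this depth, and the difference between the tissues was not tested.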

How the results depend on the processing

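The share of barcodes that met the rule, 2.10% with the marked members included, was 3.06% with at least 2 of the 6 selection genes, 1.73% with at least 4 and 1.65% without the marked members (a setting added after seeing the data), moved by less than 1 SD under the other planned settings, and ranged from 1.93% to 2.24% as each replicate was left out. Over all members, the 196 genes higher in the late group became 108 with a score without selection genes, 435 with a limit of 10 UMIs, 42 without the marked members and 26 in the glutamatergic-lineage class. The number of genes compared also changes with the UMI limit and the members kept. It was 6097 over all members and 4962 without the marked ones. Counts in this section are therefore not shares of the same genes. The 50 lower genes became 13 with 2 stage groups in place of 3, 4 with a score on 1000 UMIs, 12 without the marked members and 10 in the glutamatergic-lineage class. Leaving out each replicate gave 111 (without replicate 2) to 266 higher and 40 to 77 (without replicate 3) lower genes. With a replicate left out, a gene had to be past 2-fold in 2 libraries in place of 3. These counts are therefore not like for like with the main ones. *Neurog2* reversed to 0.10 with 2 stage groups, 0.64 with the score on 1000 UMIs, 0.48 without the marked members and 0.83 in the lineage class, and ranged from -2.67 to 0.44 as replicates were left out. *Olig2* and *Gpr17* reversed to -0.33 without the marked members and in the lineage class. Among the unmarked members (settings added after seeing the data), the 42 higher genes became 170 with a limit of 10 UMIs, 26 in the lineage class and 11 in the 121 members without 3 markers of any other class. The 12 lower genes became 30 with a score without selection genes, 3 with 2 stage groups, 0 with a score on 1000 UMIs and 31 with a limit of 10 UMIs, and 13 to 34 (without replicate 1) as each replicate was left out. *Efhd2* reversed to 0.40 with the score on 1000 UMIs, and *Chchd10* (-1.14), *Apoe* (-0.22) and *Aldoc* (-0.22) in the 121 members. The count of lower genes among the unmarked members thus depended on the score, from 0 with 1000 UMIs to 30 without selection genes. The cause was not tested. Its rise as each replicate was left out came with the looser criterion and is not read as instability. The counts against other barcodes stayed within 1.5 times under all planned settings. No paired analysis was possible because the results come from no test; the stage contrasts were already made within each library, and replicate numbers do not pair the tissues. With 1 suspension per tissue, no value measures the spread between mice.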
